A study of Mus musculus with 18 samples.

Results

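The module described here is a set of 470 array probes whose signal shifted together in 1 culture each of a pair of mouse epiblast stem cell lines. After log2 transformation and quantile normalization of 18 arrays, probes were taken when FT.3 replicate 1 minus the mean of its replicates 2 and 3 (difference A) and NT-LE replicate 2 minus the mean of its replicates 1 and 3 (difference B) had the same sign, both were at least 0.8 in size, and the mean over 18 arrays was at least 8. Of 45281 probes, 12344 reached that mean, and 470 of these met the rule. The down members, lower in both cultures, numbered 466, and the up members 4. The members were thus chosen by A and B, so every value of FT.3 and NT-LE below is a description without a test, and the tests concern NT.1, NT.2, FT.1 and FT.2, which the rule did not use.

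The lines came from embryos of strain B6D2 at the pre-streak or early streak stage. NT.1, NT.2 and NT-LE were derived from the epiblast of embryos made by somatic cell nuclear transfer, and FT.1, FT.2 and FT.3 from that of fertilized embryos. NT-LE stands for an embryo with a large extra-embryonic ectoderm, and the morphology of the other 5 was given as normal. All cells grew on serum-coated dishes in a chemically defined medium with activin A and bFGF, and each line, which is a single isolate, had 3 biological repeats with 1 bead array each.

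Epiblast stem cells are pluripotent lines that resemble the epiblast after implantation and depend on activin and FGF signalling. They keep Pou5f1, Nanog and Sox2 on while naive-state genes such as Zfp42 and Klf4 are low. A bead array reads an mRNA through short probes at different places of the transcript, and many genes have several probes, so the probes of a gene can be set beside each other as separate readings of its mRNA. The label was set beside epiblast stem cell markers: 21 of the 23 marker genes on the array had a probe with a mean log2 level of at least 8. So did 4 of the 18 naive-state genes and 14 of the 23 endoderm genes, and 12344 of all 45281 probes reached that mean. The median over the 29 such probes of the epiblast stem cell markers lay between 11.03 and 11.41 in all 18 arrays. These probes were kept for their mean, so this level is a description and not a check of the label.

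The down members belonged to 330 named genes, and 81 of the 466 probes had no gene symbol in the platform annotation. Promoters of 3 genes with the largest differences are shown because genes that move together may be read for shared promoter letters: Eef2, which moves the ribosome along the mRNA, Rbbp7, a histone-binding subunit of chromatin complexes, and Hspd1, the mitochondrial chaperonin. They are RefSeq sequences of build GRCm38.p6, 300 bases each, written along the gene's own strand. They lie at chr10:81176381-81176680 (plus strand), chrX:162760122-162760421 (plus strand) and chr1:55088194-55088493 (minus strand, the first of 2 starts listed). Capitals mark matches to any of 7 motifs, searched on both strands: TGATGNAA (C/EBP-ATF), ACGTG (hypoxia response core), GAANNTTC (heat shock element), TGANTCA (AP-1), TGACGTCA (CRE), CACGTG (E-box, which always contains the hypoxia core) and TGACNNNGC (antioxidant response element).
Eef2: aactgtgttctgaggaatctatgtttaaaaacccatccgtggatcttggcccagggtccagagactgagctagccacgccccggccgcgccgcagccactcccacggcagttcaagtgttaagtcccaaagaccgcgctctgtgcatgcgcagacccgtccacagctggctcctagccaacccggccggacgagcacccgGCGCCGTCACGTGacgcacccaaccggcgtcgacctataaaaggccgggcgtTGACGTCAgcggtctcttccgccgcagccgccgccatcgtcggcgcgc
Rbbp7: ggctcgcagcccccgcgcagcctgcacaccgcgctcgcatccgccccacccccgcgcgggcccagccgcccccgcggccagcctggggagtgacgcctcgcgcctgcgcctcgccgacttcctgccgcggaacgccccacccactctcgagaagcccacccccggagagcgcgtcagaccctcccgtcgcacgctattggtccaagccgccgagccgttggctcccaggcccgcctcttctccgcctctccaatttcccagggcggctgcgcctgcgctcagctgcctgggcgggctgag
Hspd1: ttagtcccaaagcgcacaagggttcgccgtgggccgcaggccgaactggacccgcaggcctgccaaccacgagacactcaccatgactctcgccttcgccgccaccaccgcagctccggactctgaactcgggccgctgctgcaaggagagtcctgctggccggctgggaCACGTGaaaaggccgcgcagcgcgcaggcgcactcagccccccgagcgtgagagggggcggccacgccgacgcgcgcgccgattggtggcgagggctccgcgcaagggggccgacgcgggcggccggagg
In Eef2 the capitals hold an antioxidant response element overlapping an E-box, and a separate CRE. Hspd1 has an E-box, and Rbbp7 has no match. Among 271 down-member genes with a promoter, the hypoxia core was present in 29.5%, against 27.5% of 6291 promoters of genes with a probe of mean at least 8 and 19.7% of all 27025. The CRE was present in 5.17%, against 3.72% and 1.88%. The C/EBP-ATF element was present in 1.85%, against 1.96% and 4.06%, and the heat shock element in 5.17%, against 5.52% and 7.95%. AP-1 matched 4.43%, against 4.04% and 7.93%, the E-box 10.3%, against 10.8% and 7.24%, and the antioxidant element 15.1%, against 14.6% and 12.5%. For all 7 motifs the share of the down-member genes lay closer to that of genes with a bright probe than to that of all promoters. A match is a run of letters and not a site.

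The module was almost wholly one-sided. The down members had a median A of -1.16 (lowest -3.09) and a median B of -1.23 (lowest -3.78), while all 12344 probes had medians of 0.05 and 0.06. They made up 83.8% of the 556 probes lower by 0.8 in A and 72.8% of the 640 lower by 0.8 in B. Only 23 probes were higher by 0.8 in A and 10 in B, and 0 probes passed the threshold in opposite directions. Just inside the threshold were probes for Car2 (A -0.88, B -0.80) and Fzd10 (A -0.83, B -0.80), and just outside it probes for Ppp4r1 (A -0.80, B -1.09) and Aup1 (A -0.80, B -1.62). The mean log2 level of the down members ran from the minimum of 8 to 14.77, and 381 of them were above background on all 18 arrays. For the rest, a difference against an array below background is a lower bound on its size.

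The 12 genes of the largest differences in both cultures, taken by the smaller size of A and B, had varied roles. All 3 probes of Eef2 on this array with enough signal were members. The Eef2 probe ILMN_2589181 read 8.58 in NT-LE replicate 2, against 12.22 and 11.80 in its replicates 1 and 3, and 9.03 in FT.3 replicate 1, against 11.98 and 12.25 in replicates 2 and 3. That is 10.8-fold and 8.49-fold lower. Neither culture overlapped any other of the 18 arrays, which ranged from 11.24 in NT.1 replicate 2 to 12.54 in FT.1 replicate 2. Rbbp7 (ILMN_2691187) had an A of -2.80 and a B of -3.17, and 2 further Rbbp7 probes were members as well. Eif4g2, a translation initiation factor of the eIF4G family, had an A of -2.48 and a B of -2.77. G3bp1, an RNA-binding protein of stress granules, had an A of -2.13 and a B of -2.45.

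Several members act in RNA processing. Hnrnpa2b1, which binds pre-mRNA, had an A of -2.55 and a B of -3.00. Hnrnpk, of the same broad class, had an A of -1.98 and a B of -2.18, and Snrnp70, the U1 snRNP protein that helps to recognise 5′ splice sites, had an A of -2.44 and a B of -2.29. Hnrnph1, a splicing regulator, had the most members of any gene, with 5 probes between -1.07 and -1.86 in A and between -1.12 and -1.83 in B. Of the 42 probes with enough signal in the list of splicing and nuclear RNA-binding genes, 10 were down members (23.8%), against 3.78% of all probes with a mean of at least 8. The genes were Clk1, a kinase of splicing factors, the RNA helicase Ddx5, Hnrnpa1, Hnrnpa2b1, Hnrnph1 and Srsf5. Ribosomal protein genes, which are also abundant and act in translation, had 0 of 29 probes among the members, where the 3.78% of all probes also leaves few. The predicted gene Gm5643 had an A of -2.32 and a B of -2.55. Hnrnpa1, Hspa8 and Actb have processed pseudogenes, and a probe may read more than 1 such copy.

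Members outside RNA processing included chaperones, a trafficking GTPase and metabolic enzymes. Hspd1 had an A of -2.58 and a B of -2.82, Hspa8, the constitutive cytosolic Hsp70, an A of -2.20 and a B of -2.99, and Calr, a calcium-binding chaperone of the endoplasmic reticulum, an A of -1.58 and a B of -1.94. Rab1b, a GTPase of transport from endoplasmic reticulum to Golgi, had an A of -2.21 and a B of -2.64, and Tsc22d1, a leucine-zipper regulator of transcription, an A of -2.20 and a B of -2.29. In the cholesterol and SREBP list 6 of 25 probes (24%) were down members, for Sqle and Cyp51, which act in sterol synthesis, Nsdhl, a sterol dehydrogenase with 3 member probes, and the fatty acid desaturase Fads2. Phgdh, the first enzyme of serine synthesis, had an A of -1.71 and a B of -2.78, and Shmt2, the mitochondrial serine hydroxymethyltransferase, an A of -1.41 and a B of -1.68. The hypoxia and glycolysis list had 0 of 36 probes among the members and the oxidative phosphorylation list 0 of 35, against 3.78% of all probes, a share at which lists of this size hold few members.

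Before normalization the arrays of both cultures lay between the other 2 of their lines in brightness. The mean log2 intensity was 8.08 in NT-LE replicate 2, against 8.17 and 7.94 in replicates 1 and 3, and 7.64 in FT.3 replicate 1, against 7.82 and 7.64 in replicates 2 and 3. The number of probes above background was 16778 in NT-LE replicate 2, which was the lowest of the 18 arrays, and 17520 in FT.3 replicate 1, against 17577 and 17357 in FT.3 replicates 2 and 3. Among the marker lists, the naive pluripotency genes stood at a median of 9.44 in FT.3 replicate 1, against 8.61 and 8.52 in its replicates 2 and 3, and at 9.70 in NT-LE replicate 2, against 9.60 and 9.25 in replicates 1 and 3. That list had 4 probes with enough signal and 0 members. The fibroblast list (9 probes, 0 members) moved more in NT-LE, at 10.12 in replicate 2, against 11.15 and 10.76 in replicates 1 and 3, but not in FT.3, at 10.20 in replicate 1, against 10.36 and 10.19. In NT.1 it stood at 9.96 in replicate 2, against 11.22 and 9.76 in replicates 1 and 3. The median of the primitive streak and mesoderm list (12 probes) was 0.12 above the mean of the other 2 arrays in FT.3 replicate 1. Its difference was -0.31 in NT-LE replicate 2. The medians of the other 4 marker lists had differences between -0.17 and 0.19 in both cultures. Differences taken probe by probe were smaller in these 3 lists. Their medians in A and B were -0.01 and -0.15 for primitive streak and mesoderm. They were 0.39 and 0.18 for naive pluripotency and -0.11 and -0.27 for fibroblasts. The part of these lists in the module was not tested. In RNA from whole cultures, fewer cells of a type and less RNA per cell cannot be told apart. Each culture was read on 1 array, so a shift of the cells cannot be told apart from one of RNA preparation, labelling or hybridization. No RNA quality values are given, and the part of RNA quality was not tested.

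Over all 18 arrays the median of the down members followed an order that did not run by origin alone. It was 8.03 in NT-LE replicate 2 and 8.20 in FT.3 replicate 1, and the next lowest array was NT.1 replicate 2 at 8.80, a line outside the rule. NT.1 replicates 1 and 3 stood at 9.36 and 9.31, and NT.2 replicates 1, 2 and 3 at 9.38, 9.61 and 9.15. FT.1 stood at 9.62, 9.66 and 9.52 and FT.2 at 9.44, 9.52 and 9.54. The 3 NT.1 arrays lay below all 6 arrays of FT.1 and FT.2, while NT.2 overlapped them. The spread between cultures also differed by line, with an SD of 0.31 in NT.1 and 0.23 in NT.2, against 0.07 in FT.1 and 0.05 in FT.2 (n = 3 each). Line means in that order were 9.15, 9.38, 9.60 and 9.50. The gap between NT.1 and NT.2 was no larger than the SD of either, and that between FT.1 and FT.2 was larger than both of theirs.

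The other probes of the same genes mostly did not move. Of the 330 genes, 259 had more than 1 probe with a mean of at least 8, and in 13 of these all such probes were members. The remaining 246 genes had 399 probes outside the module, with a median A of -0.02 and a median B of 0.02. Of these 399 probes, 317 (79.4%) were within 0.4 of 0 in both differences. In 21 genes, Ramp3 and Tpm3 among them, the other probes were also below -0.4 in both on average. The members were dimmer on average than the other probes in 197 of the 246 genes, and the part of brightness in the split was not tested. The module is therefore described as a set of probes, and a member's shift is not given as the shift of its gene.

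Hspa8 shows this split. Its member probe ILMN_2918479 read 10.50 in NT-LE replicate 2, against 13.71 and 13.27 in replicates 1 and 3, and 11.36 in FT.3 replicate 1, against 12.81 and 14.32 in replicates 2 and 3. It read 11.91 in NT.1 replicate 2, against 13.57 and 13.53 in replicates 1 and 3. The other 9 arrays lay between 13.19 and 14.16. The Hspa8 probes ILMN_1249586 and ILMN_1246458 stayed between 13.92 and 14.37 and between 14.74 and 15.08 in all 18 arrays, with A of 0.11 and -0.09 and B of -0.10 and 0.09. Nanog, a core pluripotency factor, split in the same way. Its member probe ILMN_1245732 read 7.58 in NT-LE replicate 2, against 9.60 and 9.28, and 7.54 in FT.3 replicate 1, against 8.58 and 9.54. It read 8.32 in NT.1 replicate 2, against 9.52 and 9.31 in replicates 1 and 3. The other Nanog probe, ILMN_2706623, had an A of -0.03 and a B of -0.01 and read 12.21 in NT.1 replicate 2, against 11.98 and 12.02. The 3 low cultures of the Nanog member were thus not low by the other Nanog probe, whose lowest array was FT.2 replicate 3 at 11.46.

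The up members were 2 probes of Actb (beta-actin) and 1 each of Bod1l, a gene of replication fork protection, and Hipk2, a nuclear kinase. Actb ILMN_2588055 read 10.01 in NT-LE replicate 2, against 8.22 and 7.99 in replicates 1 and 3, and 10.79 in FT.3 replicate 1, against 8.67 and 8.41 in replicates 2 and 3, which is 3.74-fold and 4.78-fold higher. Its companion ILMN_2846865 was 4.06-fold and 5.02-fold higher. A further Actb probe, ILMN_2617433, was a down member with an A of -0.93 and a B of -1.50, ILMN_2698799 had an A of -0.12 and a B of -0.23, and ILMN_1377923, outside the module, went the way of the up members with an A of 0.75 and a B of 0.48. Probes of this 1 gene therefore lay on both sides of the module. In NT.1 replicate 2 the pair of Actb up members was lower than the mean of NT.1 replicates 1 and 3, by log2 differences of -0.62 and -0.69, and the Actb down member also by -0.63. Bod1l had an A of 0.95 and a B of 0.87. Hipk2 had an A of 0.86 and a B of 1.00.

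In the 4 lines outside the rule, the same probes moved together in single cultures of NT.1 and NT.2. Each array was set against the mean of the other 2 arrays of its line, the form of difference the rule used. In NT.1 replicate 2, 457 of 466 down members were below 0, against 46% of the 12344 probes, with a median of -0.57 and quartiles of -0.79 and -0.39. There 112 down members were lower by at least 0.8, against 0.996% of the 12344 probes, which is 123 probes. The members made up 91.1% of those 123. In NT.2 replicate 3, 450 of the 466 were below 0, against 47.5% of all, with a median of -0.31 and quartiles of -0.42 and -0.21. There 3 members were lower by at least 0.8 (0.644% of the 466), against 7 of all 12344 probes (0.0567%). Of these 3, 1 was Hspd1 at -0.88, 1 was Slc39a8, a metal ion transporter, at -0.82, and 1 had no symbol. These 3 were singled out after their values were seen. With 1 array against 2, these differences carry no test.

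The remaining arrays of those lines mirrored this, since each serves in the other's mean. NT.1 replicates 1 and 3 had medians of 0.32 and 0.23, and NT.2 replicates 1 and 2 of 0.02 and 0.29. The FT lines moved little, with medians from -0.07 in FT.1 replicate 3 and FT.2 replicate 1 to 0.06 in FT.1 replicate 2 and FT.2 replicate 3. In both FT.1 replicate 3 and FT.2 replicate 1, 333 of the 466 were below 0, against 50% and 49.1% of all probes, yet 0 were lower by 0.8, against 0% and 0.0081% of all probes. Members with a larger shift in the rule also had a larger one here. The 77 members whose smaller size of A and B was at least 1.5 had a median of -0.85 in NT.1 replicate 2, the 202 members between 1 and 1.5 one of -0.62, and the 187 members between 0.8 and 1 one of -0.43. In NT.2 replicate 3 the medians of the same groups were -0.40, -0.34 and -0.25, and in FT.1 replicate 3 they were -0.10, -0.08 and -0.05.

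The size of the shift varied among named members. In NT.1 replicate 2, Hspd1 was lower by a log2 difference of -1.72, Hspa8 by -1.64, Hnrnpa2b1 by -1.61 and Rbbp7 by -1.55. Tpm4, an actin-binding tropomyosin, was lower by -1.39, Eif4g2 by -1.38, Hnrnpk by -1.33, Ddx5 by -1.29 and G3bp1 by -1.26. Eef2, which led the module in A, was lower by -0.91 (ILMN_2589181) there. Cdc20, an activator of the anaphase-promoting complex, was lower by -0.91, and Sqle by -0.87. Members at the other end were Ramp3, a co-receptor subunit, at -0.01, Ccne2, a G1/S cyclin, at -0.16, and Atf4 at -0.24. The order within the module thus differed between NT.1 replicate 2 and the cultures of the rule.

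The probes of a gene also parted in these lines. The 399 other probes of the same genes had a median of -0.01 in NT.1 replicate 2, with 204 below 0 and 0 past -0.8, and a median of 0.02 in NT.2 replicate 3. In 240 of the 246 genes with both kinds of probe, the members were lower than the other probes in NT.1 replicate 2, by at least 0.4 in 172 genes and with a median difference of -0.57. In NT.2 replicate 3 they were lower in 237 of the 246 genes, with a median difference of -0.32. For Hspd1, the other probe ILMN_2713841 had a difference of 0.14 in NT.1 replicate 2 and 0.01 in NT.2 replicate 3. Sqle, Tpm4 and Cdc20 had other probes at 0.11, at 0.06 and -0.15, and at -0.25, -0.10 and -0.06 in NT.1 replicate 2. Where on the transcript each probe lies was not analysed here, and its part in the split was not tested.

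Differences among the 4 lines were tested with limma on 12 arrays and 17632 probes above background, with Benjamini-Hochberg adjustment and a threshold of 0.05. All 470 members were in this set. The moderated F-test called 204 of the 466 down members, against 36.8% of all tested probes, so the share of members called (43.8%) was not far from the background. Where they were called, their order differed from that of other probes. NT.1 was the lowest line for 154 of the 204 (75.5%), against 20.6% of all called probes, and FT.1 the highest for 135 (66.2%), against 22.2%. The NT.1 means include NT.1 replicate 2, in which 457 of the 466 members lay below the mean of NT.1 replicates 1 and 3. The order of lines without that array is not given here. The count of called members was 129 without FT.1 replicate 2 (27.7%, against 28.7% of all probes) and 137 without FT.1 replicate 1 (29.4%, against 30.3%). With median scaling it was 185 (39.7%, against 54.8%). In these settings the members' share was no longer above that of all probes. The count was 336 without NT.1 replicate 1 (72.1%, against 41% of all probes) and 206 without NT.1 replicate 2 (44.2%, against 39.3%). Of the up members, Hipk2 was called, with means of 8.20 ± 0.17 in NT.1 and 7.98 ± 0.07 in NT.2, against 7.63 ± 0.09 in FT.1 and 7.75 ± 0.04 in FT.2 (SD, n = 3 each, limma F-test adjusted p = 0.00047).

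NT.1 minus NT.2 was lower for 68 and higher for 7 of the 466 down members, against 6.95% and 7.13% of all tested probes (14.1% in both directions), and the members had a median of -0.24. The excess of lower members depended on single cultures. Without NT.1 replicate 2, 29 members were lower and 38 higher (6.22% and 8.15%, against 6.89% and 7.4% of all probes), and the median was -0.035. Without NT.1 replicate 1, 149 were lower and 5 higher (32% and 1.07%, against 7.74% and 7.75%). The total of 75 calls became 40 without NT.2 replicate 1 (8.58%, against 11.5% of all probes), 24 without replicate 2 (5.15%, against 8.47%) and 119 without replicate 3 (25.5%, against 12.8%). Without NT.2 replicate 2, 18 members were lower and 6 higher (3.86% and 1.29%, against 3.65% and 4.82% of all probes), and the median was -0.13. With arrays scaled to a common median instead, 105 members were lower and 6 higher, and over all probes 1457 were lower and 729 higher, against 1226 and 1258 with quantile normalization. Of the 75 called members, 41 had another probe of their gene in the fit. That other probe was called in the same direction for 16 of them, in the opposite direction for 0, and not called for 25.

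With each named gene read by its member of the largest smaller size of A and B, the 5 genes with the smallest p in the F-test were Atf4, Cth, Ramp3, Asns and L1td1, and for some of them the other probes went the same way. Asns makes asparagine and is a well-known ATF4 target. Its member ILMN_2636755 read 8.86, 8.42 and 8.59 in NT.1 and 9.68, 9.96 and 9.17 in NT.2, against 8.55, 8.57 and 8.49 in FT.1 and 8.46, 8.59 and 8.70 in FT.2. All 3 NT.2 arrays were above the other 9. The difference NT.1 minus NT.2 was -0.98 ± 0.15 (SE, limma adjusted p = 0.00035). The Asns probes ILMN_3006123 and ILMN_2643513 gave -0.58 ± 0.08 (limma adjusted p = 0.00012) and -0.59 ± 0.11 (limma adjusted p = 0.0020), so the call of Asns was shared by all 3 probes. Cth, which makes cysteine, was also lower in NT.1 than in NT.2, by -0.59 ± 0.14 (limma adjusted p = 0.0084), and so was Phgdh, by -0.63 ± 0.17 (limma adjusted p = 0.023, and 0.12 without NT.2 replicate 2). Both differences of Asns and Cth kept their call in all 18 alternatives that used these 12 arrays or fewer.

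Atf4 itself, the stress-responsive transcription factor, differed between its probes. The member ILMN_1223734 read 11.11, 10.75 and 10.86 in NT.1 and 9.18, 9.53 and 9.35 in NT.2, against 11.09, 11.06 and 11.09 in FT.1 and 11.11, 11.06 and 11.05 in FT.2. The 3 NT.2 arrays were below the other 9 without overlap. NT.1 minus NT.2 was 1.55 ± 0.10 (SE, limma adjusted p = 1.0e-08), and this call held in all 18 alternatives on these arrays, with adjusted p up to 2.4e-07. The second Atf4 probe, ILMN_2642681, gave -0.20 ± 0.09 (limma adjusted p = 0.17), and its NT.2 readings of 13.25, 13.43 and 13.51 overlapped the 13.08, 13.30 and 13.22 of NT.1. The probe that was low in NT.2 thus had no counterpart in the second reading of the gene.

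L1td1, an RNA-binding protein of pluripotent cells, was the opposite case. Its member ILMN_1260018 read 12.13, 11.64 and 12.16 in NT.1 and 11.38, 11.31 and 11.25 in NT.2, and the other probe ILMN_2961042 read 12.64, 12.61 and 12.69 in NT.1 and 10.90, 10.88 and 11.19 in NT.2. NT.1 minus NT.2 was 0.66 ± 0.11 for the member (limma adjusted p = 0.00053) and 1.65 ± 0.09 for the other probe (limma adjusted p = 1.4e-09). NT.2 was the lowest of the 4 lines by both. Irf1, a transcription factor of interferon responses, had member probes at 9.53, 8.51 and 9.24 in NT.1 and 8.76, 9.13 and 8.53 in NT.2, against 9.71, 9.89 and 9.87 in FT.1 and 9.60, 9.78 and 9.82 in FT.2 (ILMN_2649067, limma F-test adjusted p = 0.0016). All 6 NT arrays were below all 6 FT arrays. Its other probes ILMN_2834777 and ILMN_2599782 were also called (limma F-test adjusted p = 5.7e-06 and 9.0e-05), with NT.2 lowest. Ramp3 ILMN_3073644 read 8.38, 8.34 and 8.31 in NT.1 and 8.41, 8.63 and 8.14 in NT.2, against 9.01, 9.04 and 9.07 in FT.1 and 8.74, 8.81 and 8.86 in FT.2 (limma F-test adjusted p = 0.00011). The NT and FT arrays did not overlap by this probe, nor by the second Ramp3 member, ILMN_2749052, which had the smaller p (limma F-test adjusted p = 1.5e-05). They overlapped by the Ramp3 probe outside the module, ILMN_3152486, with 10.01 in NT.1 replicate 3 and 9.91 in FT.1 replicate 3. These F-tests concern differences among the 4 lines and not origin. For origin, where the line is the replicate, 0 of the 466 down members were called.

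Few members passed the threshold between FT.1 and FT.2. FT.1 minus FT.2 was called for 2 of the 466, against 3.9% of all tested probes, with a median of 0.09. They were Mthfd1, an enzyme of folate metabolism, at 0.56 ± 0.13 (SE, limma adjusted p = 0.019), and a probe without a symbol, ILMN_1248368, at 0.71 ± 0.12 (limma adjusted p = 0.0025), both named after their values were seen. Without NT.1 replicate 2, 12 members were called (2.58%), against 5.69% of all probes, and the fit shares 1 estimate of the spread over the 4 lines. FT.1 minus FT.2 was below 0 for 113 of the 466 members, against 9046 of the 17632 tested probes. The few calls are therefore not read as likeness of FT.1 and FT.2 at the members.

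For origin, the line is the replicate, and NT.1 and NT.2 were set against FT.1 and FT.2 with limma on 4 line means. The test called 0 of the 466 down members, against 0.0454% of all tested probes, which is 8 probes. At an unadjusted p under 0.05 it had 172 members lower and 3 higher in the NT lines, against 7.54% and 7.49% of all tested probes. The median of NT minus FT was -0.25 for the members and 0.01 for all tested probes. With median scaling these medians were -0.030 and 0.18, a shift of 0.17 over all probes, and the members were again below the rest. Under quantile normalization the members' median was -0.15 without NT.1 replicate 2 and -0.19 without NT.2 replicate 3. It was -0.30 without NT.1 replicate 1, so its size depended on single cultures. With line as a random block 28 members were called (6.01%), close to the 5.61% of all probes. Irf1 had the values -0.83 ± 0.12 (SE, limma adjusted p = 0.20) and Fads2 -0.47 ± 0.08 (limma adjusted p = 0.22), and Cdc20 read 0.50 lower in the NT lines on the log2 scale (SE 0.10, limma adjusted p = 0.22). None of these passed the threshold.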

How the data were processed

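Total RNA of 18 cultures was labelled as biotinylated cRNA and read on Illumina bead arrays. The deposited scanner values are linear intensities of 45281 probes, not normalized per the file headers and without detection p-values. BeadStudio and lumi are named in the submitters' processing notes, with no version or role. A second deposited table holds values the authors processed, with every column at a median of 7.94. How the authors made these values, taken here as log2 and uncentred, and on which scale is not given in the sources used here. They were so taken because they ranked probes as the same array's intensities did and, over a log2 intensity of 10, rose by 0.98 to 1.04 per log2 unit. They served as an alternative.

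With limma 3.58.1 in R 4.3.3, log2 intensities were quantile-normalized over the 18 arrays. No background was subtracted, so differences of dim probes are understated. A probe was above background on an array when it exceeded the mode by 3 times the spread below the mode, and 17632 probes (38.9%) above it on all 3 arrays of at least 1 of NT.1, NT.2, FT.1 and FT.2 were tested with lmFit and eBayes, two-sided, with Benjamini-Hochberg adjustment. Cultures are the replicates of a line, and lines those of an origin. Array number limits the precision.

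Symbols came from the platform annotation, which can be old: 34885 probes have 1, 18 several and 10378 none. Named genes are the 12 down members of the largest smaller size of A and B, all up members, the 5 with the smallest F-test p, and members of 29 gene lists, with 1 probe per gene, the one of the largest smaller size of A and B. Their other probes were added after the values were seen. The members and lists were chosen with earlier results of these data known.

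On simulated data with 200 of 17632 probes changed 2-fold, the test among 4 lines called 199 of them and 13 others. It called 196 and 6 for NT.1 minus NT.2, 197 and 14 for FT.1 minus FT.2, and 198 and 6 for NT minus FT. With a change of 1.5-fold, the same tests in that order called 168, 171, 176 and 183 of the 200. Smaller changes were not simulated. The simulated lines differed only by the added change, whereas the real lines of an origin also differ from each other. The figures for NT minus FT therefore do not give the recovery of that test in these data. Alternatives were the authors' values, normexp with an offset of 50, median scaling, other filters and thresholds, each array left out, all 18 arrays, blocks and, after seeing the data, 1 probe per gene. Counts were made in Python 3.11.15. Neither the labels nor the file headers name a slide or scan date or give RNA quality values. Replicate numbers are not stated to pair cultures across lines.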

Additional observations from a re-analysis of the deposited data

How the results depend on the processing

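The medians of the down members in NT.1 replicate 2 (-0.67 to -0.48) and NT.2 replicate 3 (-0.43 to -0.27) stayed below 0 under every alternative run. With the authors' processed values there were 209 down and 2 up members, with thresholds of 1.0 279 and 2, with a minimum mean of 9 273 and 0, and with thresholds of 0.6 17 up members. The median of up minus down members in NT.1 replicate 2, -0.58 as reported, was -1.37 with the authors' values and 0.45 with thresholds of 0.6, where the up members are other probes. With a minimum mean of 9 it has no value. Fitting all 18 arrays, where the rule itself widens the members' spread, called 4 members and 3691 probes in all among lines, 1 and 1408 for NT.1 minus NT.2, and 0 and 358 for FT.1 minus FT.2. FT.1 minus FT.2 had 323 probes in all with median scaling and 1 member with 1 probe per gene. NT minus FT had 1 member without the filter, 1 probe in all among probes above background on all 12 arrays, 28 members and 990 probes with line as a random block, and a median of -0.030 with median scaling. Leaving out each array gave 129 to 336 members and 5063 to 7235 probes among lines. It gave 24 to 154 members, 1493 to 2731 probes and medians of -0.36 to -0.035 for NT.1 minus NT.2. FT.1 minus FT.2 had 1 to 12 members, 347 to 1025 probes and medians of 0.06 to 0.11, and NT minus FT 0 members, 8 to 9 probes and medians of -0.30 to -0.15. The cause was not tested. Deviations of arrays that share a number across lines correlated at a median of -0.0078 (range -0.41 to 0.19), against -0.0028 for arrays of different numbers. Of the 12 arrays, 4 correlated best with their own number. Whether arrays of the same number shared a batch was not tested. With the replicate block, 165, 63 and 2 members were called in the first 3 tests (35.4%, 13.5% and 0.429%, against 33.8%, 12.9% and 3.37% of all probes), and NT minus FT with line as a random block had 13 members and 618 probes. Of the results for single named probes over all alternatives, 1551 stayed on their side of the threshold, 133 lost a call, 64 gained one and 0 reversed.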

Other observations

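Of the 29 gene lists, 14 had a down member and 15 had none. Among all probes with a mean of at least 8, 3.78% were down members. At that share lists of the sizes below hold few members, so counts of 0, 1 or 2 are not read as results about a list. The epiblast stem cell list had 2 of 29 probes, for Nanog and Pim2, a survival kinase with an A of -1.78 and a B of -1.92. Of the lists for other cell types, endoderm had 1 of 18 probes, for Sparc, a matrix protein. The lists for naive pluripotency, primitive streak and mesoderm, neuroectoderm, trophoblast and fibroblasts had 0 of 4, 0 of 12, 0 of 4, 0 of 6 and 0 of 9. The actin and YAP list had 3 of 41, for Actb, Tpm4 and Ccn1, and the immediate-early list 2 of 35, for Ccn1 and Dusp6. Dusp6, a phosphatase that acts on ERK, had an A of -1.16 and a B of -0.86, while its probes ILMN_2925711 and ILMN_1248537 had A of 0.14 and -0.20 and B of 0.35 and -0.01. The heat shock list had 2 of 18 (Hspa8 and Hspd1), ribosome biogenesis 2 of 24 (Nop2 and Nop56), interferon 2 of 18 (both Irf1), and the unfolded protein list 1 of 16 (Calr). Mitosis had 1 of 27 (Cdc20), DNA replication 1 of 36 (Ccne2) and apoptosis 1 of 18 (Apaf1). Oxidative stress (14), p53 targets (26), mitochondrially encoded genes (6), histones (16), imprinted genes (19), autophagy (24) and WNT and NODAL targets (22) had 0 members among the number of probes given.

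The list of ATF4 and the integrated stress response had 5 of 45 probes in the module (11.1%, against 3.78% of all probes with a mean of at least 8), for Asns, Atf4, Cth, Phgdh and Shmt2. Over the whole list, NT.1 minus NT.2 was called lower for 32 and higher for 1 of its 51 tested probes, with a median of -0.41, against 6.95% and 7.13% of all tested probes. The 1 higher probe is the Atf4 member. Without the module's 5 probes, 29 of 46 were lower and 0 higher. For Shmt2, the member gave -0.41 ± 0.18 (SE, limma adjusted p = 0.16) and the other probe, ILMN_1224942, -0.41 ± 0.08 (limma adjusted p = 0.0021). The down-member genes lay on 20 chromosomes, at most 32 of the 330 on one of them (chromosome 2), with 9 on X. Their median genomic span was 24.1 kb, against 21.7 kb for all genes with a probe of mean at least 8, and 329 of 330 code for protein.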
